A study of Mus musculus with 8 samples.

Results

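The let-7 passenger strands are the 3p arms of the let-7 hairpins, and 10 of them were examined in microRNA counts of sorted mouse microglia: mmu-let-7a-1-3p, mmu-let-7a-2-3p, mmu-let-7b-3p, mmu-let-7c-1-3p, mmu-let-7c-2-3p, mmu-let-7d-3p, mmu-let-7f-1-3p, mmu-let-7f-2-3p, mmu-let-7g-3p and mmu-let-7i-3p (mmu, for mouse, is left out from here on). They were chosen by name, and all 10 are among the 1966 mature miRNAs listed. The microglia came from male C57BL/6 mice, without a genetic change or treatment named in the labels, at 3 months (young, 4 libraries) and 21 months (aged, 4 libraries). Live brain cells were sorted by the gate CD11b+, CD45 low, CD206-, which gave 10000 to 40000 cells per library, and 2 mice had been pooled for the fourth aged sample. Values by library are always given in the order of mice 1 to 4. Each library is a bulk sample, in which fewer cells of a type and less RNA per cell cannot be told apart.

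A let-7 hairpin is cut into a short duplex, of which a strand is kept by an Argonaute protein and directs it to target messenger RNAs, while the other is mostly discarded. In the let-7 family the 5p arm is the usual guide, known for holding cells in a differentiated state through targets such as Lin28, Hmga2 and the Ras genes, and the 3p arm is the passenger. Target recognition rests mainly on the seed, bases 2 to 8 from the 5′ end. The question put to the data was how much of each 3p strand was present beside the 5p strand of its hairpin, and whether this differed between young and aged mice.

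The mature sequences show how much the 3p arms differ from each other. They are printed 5′ to 3′ from RefSeq (GRCm38.p6), which held all 10 members, with the seed in capitals.
let-7a-1-3p: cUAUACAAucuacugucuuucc
let-7c-2-3p: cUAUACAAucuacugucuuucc
let-7b-3p: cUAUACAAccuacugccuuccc
let-7f-1-3p: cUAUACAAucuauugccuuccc
let-7f-2-3p: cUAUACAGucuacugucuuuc
let-7d-3p: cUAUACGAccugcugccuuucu
let-7c-1-3p: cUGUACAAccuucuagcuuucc
let-7a-2-3p: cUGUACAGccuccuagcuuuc
let-7g-3p: aCUGUACAggccacugccuugc
let-7i-3p: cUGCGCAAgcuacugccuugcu

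The 10 strands held 9 distinct sequences and 7 distinct seeds. UAUACAA was the only seed shared, by let-7a-1-3p, let-7b-3p, let-7c-2-3p and let-7f-1-3p. The 7 corresponding 5p strands all carried the same seed, as the examples of let-7a, let-7i and let-7d show.
let-7a-5p: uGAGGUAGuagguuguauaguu
let-7i-5p: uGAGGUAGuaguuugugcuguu
let-7d-5p: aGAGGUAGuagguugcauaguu
Pairs of 3p strands differed by a median of 6 edits (range 0 to 9, 45 pairs), against 3 edits (range 1 to 6, 21 pairs) for the 5p strands. A C was the first base of 9 of the 10 members, the exception being let-7g-3p, and U was the first base of 6 of the 7 5p strands, the exception being let-7d-5p. let-7a-2-3p and let-7c-1-3p shared the stretch CUAGCUUUC near the 3′ end, which the other 8 members lacked.

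let-7c-2-3p and let-7a-1-3p have the same mature sequence although their hairpins differ, as seen with both arms in capitals.
Mirlet7a-1: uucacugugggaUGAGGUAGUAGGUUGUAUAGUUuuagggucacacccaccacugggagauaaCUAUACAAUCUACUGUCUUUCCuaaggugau
Mirlet7c-2: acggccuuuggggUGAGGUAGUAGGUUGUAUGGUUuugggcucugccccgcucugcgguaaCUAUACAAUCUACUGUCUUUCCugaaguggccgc
Their counts were identical in 8 of 8 libraries. All 8 values were whole, while 68 of the 3173 nonzero values of the data were not. Whether the reads were entered in full in both rows or divided between them was not tested and is not known. The strand is treated as a single one that either hairpin may have given, and it is counted once in sums. In all, 9 sets of rows with identical counts (at least 8 summed counts) were found in the file.

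In the annotation of GRCm38, 5 of the members lie in exons of noncoding transcripts from 2 loci. Mirlet7a-1 (chr13:48538179-48538272), Mirlet7f-1 (chr13:48537829-48537917) and Mirlet7d (chr13:48536012-48536114), all on the minus strand, lie in exons of the lincRNA 6720427I07Rik, and a miRNA gene, Gm24111, is annotated opposite Mirlet7f-1. Mirlet7c-2 (chr15:85706603-85706697) and Mirlet7b (chr15:85707319-85707403), both on the plus strand, lie in an exon of Lncppara. Mirlet7i (chr10:122985640-122985724, minus strand) overlaps an exon of D630033A02Rik, a transcribed pseudogene. The other 4 are intronic and on the plus strand, with Mirlet7g (chr9:106178840-106178927) in Wdr82, Mirlet7f-2 (chrX:151912346-151912428) in Huwe1, Mirlet7c-1 (chr16:77599657-77599750) in Mir99ahg and Mirlet7a-2 (chr9:41536716-41536811) in 3110039I08Rik and Gm49317.

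The libraries held 208379 to 298820 miRNA counts in young and 150322 to 235124 in aged mice, so that a floor of 3 counts stood for 10.0 to 20.0 CPM, which are the counts of a miRNA scaled to 1000000 miRNA counts of its library. The floors and the Wilson intervals of 3p shares cover counting error only. The intervals of fold changes come from the fitted spread between libraries. The 5 myeloid markers were detected, though miR-223-3p (0 to 97.8 CPM) not in every library. Their summed level was 65381 to 77316 CPM in young and 49938 to 74593 CPM in aged mice, mostly from miR-146a-5p (41548 to 63790 CPM). The markers of other cell types summed to 927 to 2384 CPM in young and 1049 to 2436 CPM in aged mice for 3 neuronal miRNAs, to 110 to 339 CPM and 233 to 932 CPM for 3 red cell miRNAs, of which miR-486a-5p was at 0, and to 110 to 652 CPM and 213 to 1647 CPM for 2 choroid plexus miRNAs. Markers of oligodendrocytes, endothelium and mural cells each summed to at most 519 CPM. Their part in the results was not tested.

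The 3p strands were rare beside the 5p strands. Together they took 0.112% to 0.174% of the miRNA counts of a library, against 25.5% to 42.4% for the 5p strands, or 4.23 ± 1.09 (SD, n = 4) 3p reads per 1000 5p reads in young and 4.00 ± 0.64 (SD, n = 4) in aged mice. let-7i-3p, let-7d-3p and the strand shared by let-7a-1 and let-7c-2 gave 85.8% to 96.7% of the 3p counts. These 4 names were also the only members with at least 10 counts in every library.

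**Figure D1:**
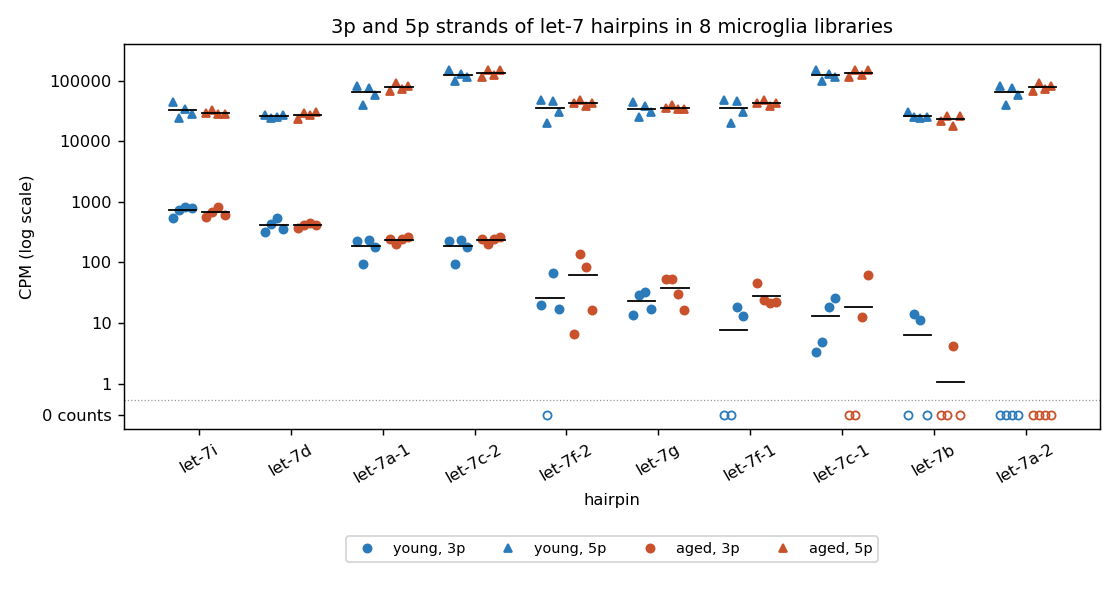
Level of the 3p strand (circles) and the 5p strand (triangles) of each let-7 hairpin in CPM on a log scale, with 1 symbol per library, young in blue and aged in orange, the mean of 4 mice as a bar and libraries with 0 counts as open symbols under the dotted line. The 3p strands spread from 0 to 834 CPM, while the 5p strands lie between 18105 and 151711 CPM. The let-7a, let-7c and let-7f 5p strands are drawn at both of their hairpins.

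let-7i-3p was the most abundant member. The young libraries held 161, 153, 225 and 185 of its reads, the aged ones 83, 113, 196 and 111. Scaled to the libraries, these equal 539, 734, 829.7 and 794 CPM in young and 552, 669, 834 and 616 CPM in aged mice. Young mouse 3 and aged mouse 3 were the highest of their ages and the ages overlapped, with means of 724 ± 129.7 CPM (SD, n = 4) in young and 668 ± 121 CPM (SD, n = 4) in aged mice.

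let-7d-3p came second, with 96, 90, 144 and 83 counts in the young libraries and 56, 70, 106 and 74 in the aged. In CPM this was 410.1 ± 92.9 (SD, n = 4) in young and 412 ± 32.0 (SD, n = 4) in aged mice, with all aged values inside the young range of 321 to 531 CPM. let-7i-3p was higher than let-7d-3p in 8 of 8 libraries, by 0.75 ± 0.19 (SD over 8 libraries) on the log2 scale, which is 1.68-fold (exact two-sided sign-flip permutation test, p = 0.0078, the smallest value that 8 libraries allow). Mature members are 21 or 22 bases long, so CPM can be set side by side without a correction for length, although the ligation of adapters is known to differ between sequences.

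The shared strand of let-7a-1 and let-7c-2 had 68, 20, 63 and 42 counts in the young libraries and 37, 34, 58 and 47 in the aged. Young mouse 2 was the lowest library with 96.0 CPM, and the other 7 lay between 180.2 and 261 CPM. The means were 184 ± 63.2 CPM (SD, n = 4) in young and 239 ± 25.8 CPM (SD, n = 4) in aged mice. It stayed under let-7d-3p in 8 of 8 libraries (1.99-fold, exact two-sided sign-flip permutation test, p = 0.0078).

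All remaining members had counts at or near the floor in some libraries. let-7f-2-3p, next in the order with a mean of 43.5 CPM, had 6, 0, 18 and 4 counts in the young libraries and 1, 23, 20 and 3 in the aged. It was thus high in young mouse 3 and in aged mice 2 and 3 and near or under the floor in the others, a spread that both ages share. Below the shared strand in 8 of 8 libraries (exact two-sided sign-flip permutation test, p = 0.0078), it did not differ from let-7g-3p beyond the spread (mean 30.7 CPM, p = 0.75 in the same exact test). let-7g-3p had 4, 6, 9 and 4 counts in the young libraries and 8, 9, 7 and 3 in the aged.

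let-7f-1-3p, with a mean of 18.1 CPM, had 0, 0, 5 and 3 counts in the young libraries and 7, 4, 5 and 4 in the aged. The aged mice, from 21.3 to 46.6 CPM, lay above the young mice, of which the highest had 18.4 CPM. The nearest libraries, young mouse 3 and aged mouse 3, both had 5 counts, and by counts alone the ages overlapped. No other member was separated in this way, and among all 419 miRNAs tested 4.77% had ages that did not overlap. let-7c-1-3p had 1, 1, 5 and 6 counts in the young libraries and 0, 0, 3 and 11 in the aged, with a mean of 15.8 CPM, and was not separated from let-7f-1-3p (exact two-sided sign-flip permutation test, p = 0.72).

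The lowest members were let-7b-3p and let-7a-2-3p. let-7b-3p had 0, 3, 3 and 0 counts in the young libraries and 0, 0, 1 and 0 in the aged, never above the floor. let-7a-2-3p had 0 counts in all 8 libraries, which allows up to 0.123 to 0.361 reads per 1000 reads of let-7a-5p, depending on the library. Of the 8 neighbouring pairs in this order, 3 had p = 0.0078, the pair of let-7g-3p and let-7f-1-3p had p = 0.031 and the 4 other pairs had p of 0.125 or more (exact two-sided sign-flip permutation tests, not adjusted). The pairs were taken from the order of the means in the same libraries, so these p-values describe how steady each step was over the libraries and are no independent test of the order.

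The order of the 3p strands was not that of the 5p strands. let-7c-5p (mean 128453 CPM) and let-7a-5p (70824 CPM) were the most abundant of the 7 5p strands, while let-7i-5p (31075 CPM) and let-7d-5p (26521 CPM) had ranks 5 and 6. The orders differ in unit, since let-7c-5p, let-7a-5p and let-7f-5p can each come from both of their hairpins. let-7b-5p, the last of them, still had 24500 CPM, and its 3p partner was near 0. Hairpins from the same host transcript also differed in their 3p level, with mean values of 411 CPM for let-7d-3p, 211 CPM for the shared strand and 18.1 CPM for let-7f-1-3p at the chromosome 13 locus. The share of the let-7a-1 hairpin in the second of these values is not known.

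Set against the 5p strand of the same hairpin, let-7i had the most 3p reads. Its ratio was 12.2, 30.8, 24.6 and 27.8 3p reads per 1000 5p reads in the young libraries and 18.8, 20.4, 29.7 and 21.8 in the aged. Young mouse 1 stood lowest, with a 3p share of both arms of 1.21% (Wilson 95% interval 1.04% to 1.41%), while the intervals of the other 7 libraries began at 1.49% or above. This library had the lowest let-7i-3p level (539 CPM) together with the highest let-7i-5p level (44047 CPM, against at most 33664 CPM elsewhere).

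let-7d followed with 11.9, 17.7, 21.2 and 13.3 3p reads per 1000 5p reads in the young libraries and 16.2, 14.4, 16.8 and 13.5 in the aged. Its aged values again lay inside the young range. The ratio of let-7i was higher than that of let-7d in 8 of 8 libraries, by 0.54 ± 0.36 (SD over 8 libraries) on the log2 scale (exact two-sided sign-flip permutation test, p = 0.0078). The shared strand, set against the sum of let-7a-5p and let-7c-5p because either hairpin may give it, reached only 0.703 to 1.35 reads per 1000. let-7d exceeded this by 14.8-fold in the geometric mean, again in 8 of 8 libraries (exact two-sided sign-flip permutation test, p = 0.0078, the second of 2 such tests of ratios). As for the levels, the order of these ratios was seen in the same libraries. Both p-values thus describe how steady the difference was and are no independent test of it.

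**Figure D2:**
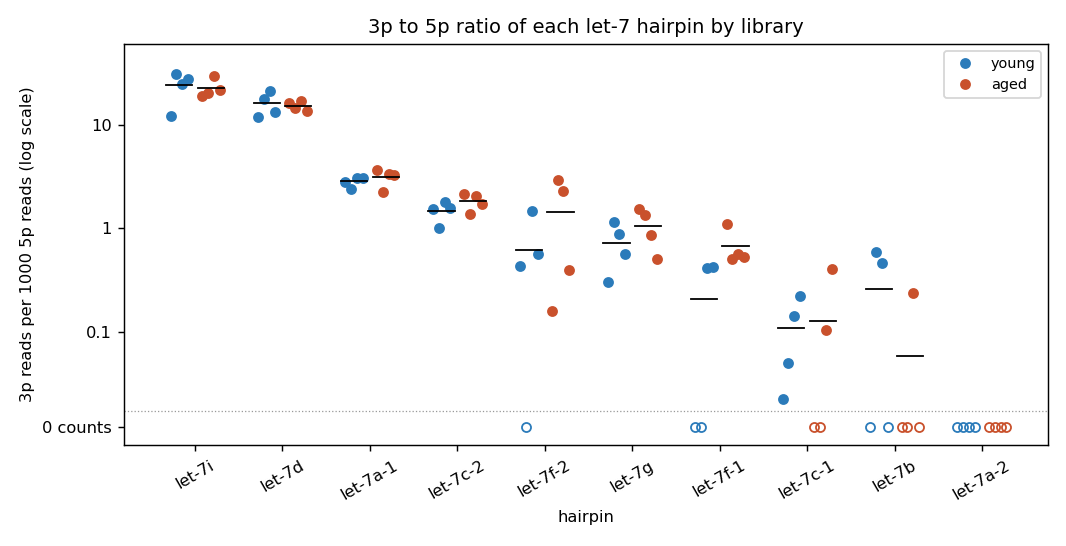
3p reads per 1000 5p reads of each let-7 hairpin on a log scale, with 1 point per library, young in blue and aged in orange, the mean of 4 mice as a bar and libraries without a 3p count as open circles under the dotted line. The points of let-7i and let-7d, from 11.9 to 30.8, lie above those of all other hairpins, which reach at most 3.68. The let-7a-1 and let-7c-2 columns use the same 3p counts over let-7a-5p and let-7c-5p, respectively.

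For let-7f, both 3p strands together gave 0.82 ± 0.81 (SD, n = 4) reads per 1000 let-7f-5p reads in young and 2.11 ± 1.21 (SD, n = 4) in aged mice. let-7g gave 0.72 ± 0.37 (SD, n = 4) and 1.06 ± 0.46 (SD, n = 4). For let-7c-1 the values were 0.109 ± 0.091 (SD, n = 4) and 0.127 ± 0.190 (SD, n = 4), which equals 8338 5p reads for each 3p read over all libraries, against 45.3 for let-7i and 64.4 for let-7d. let-7c-5p can also come from let-7c-2, so this ratio is a lower limit for the let-7c-1 hairpin itself.

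The levels of both arms can be set beside each other across the libraries. For let-7i the SD of log2 CPM over 8 libraries was 0.25 for the 3p and 0.26 for the 5p strand, while the SD of the log2 ratio was larger, at 0.44. For let-7d the same values were 0.22, 0.13 and 0.27. The let-7a-1 pair behaved otherwise, with 0.46 for the 3p strand, 0.37 for let-7a-5p and 0.24 for their ratio, and young mouse 2 was lowest for both strands. This held only with let-7a-5p as the 5p strand. Against the sum of let-7a-5p and let-7c-5p, the SD was 0.27 for the sum and 0.30 for the ratio. Against let-7c-5p alone, it was 0.23 for let-7c-5p and 0.34 for the ratio.

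The rest of the file gives the scale for these ratios. Of 107 hairpins with both arms tested, let-7c-1 had the smallest amount of the minor arm, at 0.120 reads per 1000 of the major arm, with all of let-7c-5p, which let-7c-2 also gives, as the major arm. let-7i had rank 30 from the lowest with 22.08. The 8 let-7 hairpins in this set had a median of 1.37 and the 99 others one of 125. The filter requires at least 5 counts of the minor arm in a library, which leaves abundant hairpins with the widest room for low values, and let-7a-2 and let-7b did not pass it. Among the 8 other hairpins with a major arm at least as abundant as let-7b-5p, the lowest of the let-7 5p strands, a group formed after the values were seen, the median was 1.48 and the range 0.244 to 27.0. In all 8 let-7 hairpins the minor arm was the 3p, as in 58 of the 99 others.

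**Figure D3:**
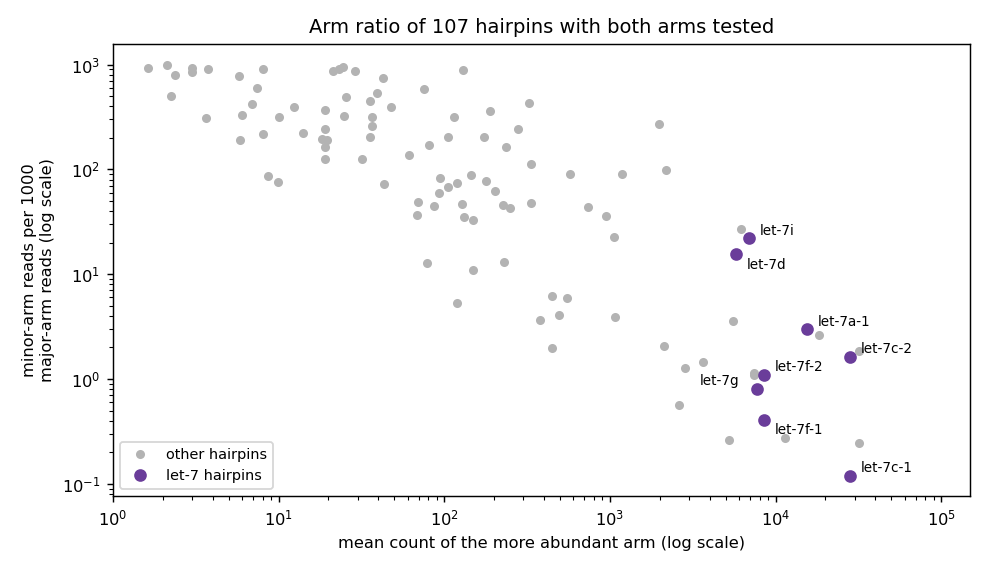
Reads of the less abundant arm per 1000 reads of the more abundant arm against the mean count of the more abundant arm, both on log scales, for 107 hairpins with both arms tested. The 8 let-7 hairpins (violet) lie at the right, from 0.120 for let-7c-1 to 22.08 for let-7i.

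Other passenger strands of the let-7 family were as rare in counts as the low members. let-7e-3p, which shares the stretch CUAGCUUUC with let-7a-2-3p and let-7c-1-3p, had at most 3 counts in a library. miR-98-3p, whose hairpin neighbours let-7f-2, had at most 5. Per 1000 5p reads, let-7e gave 1.69 ± 1.97 (SD, n = 4) in young and 1.92 ± 3.84 (SD, n = 4) in aged mice. miR-98 gave 1.77 ± 2.64 (SD, n = 4) and 2.57 ± 5.14 (SD, n = 4). These means lay above those of let-7g, but the floor of 3 counts stood for 5.55 to 11.4 per 1000 for let-7e and 4.12 to 16.8 for miR-98. From hairpins clustered with let-7a-2 and let-7c-1, miR-99a gave 40.8 ± 5.29 (SD, n = 4) 3p reads per 1000 5p reads in young and 50.5 ± 24.3 (SD, n = 4) in aged mice. Reads of miR-125b-2-3p even outnumbered those of miR-125b-5p, with 1841 ± 620.1 (SD, n = 4) per 1000 in young and 1661 ± 414 (SD, n = 4) in aged mice. miR-100-3p and miR-125b-1-3p had 0 counts in all 8 libraries.

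Between aged and young mice no let-7 3p strand passed the test. In edgeR's quasi-likelihood test with Benjamini-Hochberg adjustment, 3.82% of the 419 miRNAs had an adjusted p-value under 0.05, and 0 of the 8 members tested, which are 7 distinct strands. At an unadjusted p-value under 0.05 it was 12.2% of all miRNAs and again 0 of the 8 members. DESeq2 called 0 of these members and 2.59% of 386 miRNAs. The bias-adjusted edgeR fit also called 0 of them, and 0.477% of the 419 miRNAs. The 2 members not tested were let-7a-2-3p and let-7b-3p, which did not reach 5 counts in any library. The median log2 fold change was 0.46 over the 8 rows, which hold the shared strand in 2 of them, and -0.07 over all 419 miRNAs. The highest values were those of let-7f-1-3p (1.84) and let-7f-2-3p (1.25), which had few counts. The most abundant members, let-7i-3p and let-7d-3p, had -0.05 and 0.07.

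For the abundant strands the intervals of the fold change were narrower than for the rare strands. The log2 fold change was -0.05 for let-7i-3p (standard error 0.29, edgeR adjusted p = 0.94), with an approximate 95% interval for the fold change from 0.649 to 1.43. For let-7d-3p it was 0.07 (standard error 0.32, edgeR adjusted p = 0.94), with 0.684- to 1.62-fold, and for the shared strand 0.38 (standard error 0.38, edgeR adjusted p = 0.75), with 0.777- to 2.18-fold. Changes within these limits could not be told from 0 in these libraries.

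For the rare strands the data allow much larger changes. The log2 fold change was 1.84 for let-7f-1-3p (standard error 1.35, edgeR adjusted p = 0.59), although its ages did not overlap, and the interval ran from 0.574- to 22.4-fold. It was 2.69 without young mouse 3 (edgeR adjusted p = 0.49) and 1.45 without young mouse 2 (edgeR adjusted p = 0.78). let-7f-2-3p followed with 1.25 (standard error 0.77, edgeR adjusted p = 0.51), and this value rested on single libraries, being 2.19 without young mouse 3 (edgeR adjusted p = 0.21) and 0.49 without aged mouse 2 (edgeR adjusted p = 0.91). let-7g-3p had 0.80 and let-7c-1-3p 0.53, with intervals from 0.474- to 6.37-fold and from 0.219- to 9.53-fold.

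None of the 5p strands passed the test either. Of the 7, 0 had an adjusted p-value under 0.05 in edgeR and 0 an unadjusted one, with log2 fold changes from -0.14 for let-7b-5p to 0.30 for let-7a-5p. let-7e-5p, the guide of the let-7e hairpin, lay outside these 7, with 1262 to 1810 CPM in young and 2062 to 2168 CPM in aged mice. Its ages did not overlap, as in 4.77% of the 419 miRNAs tested. Its log2 fold change was 0.50 (standard error 0.26, edgeR adjusted p = 0.41, unadjusted p = 0.0499), and 12.2% of all miRNAs had an unadjusted p-value under 0.05. let-7e-5p was outside the planned list of miRNAs. Of the 9 strands of the clustered miR-98, miR-99a, miR-100 and miR-125b hairpins, 6 were tested and 0 called, with 0 at an unadjusted p-value under 0.05.

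**Figure D4:**
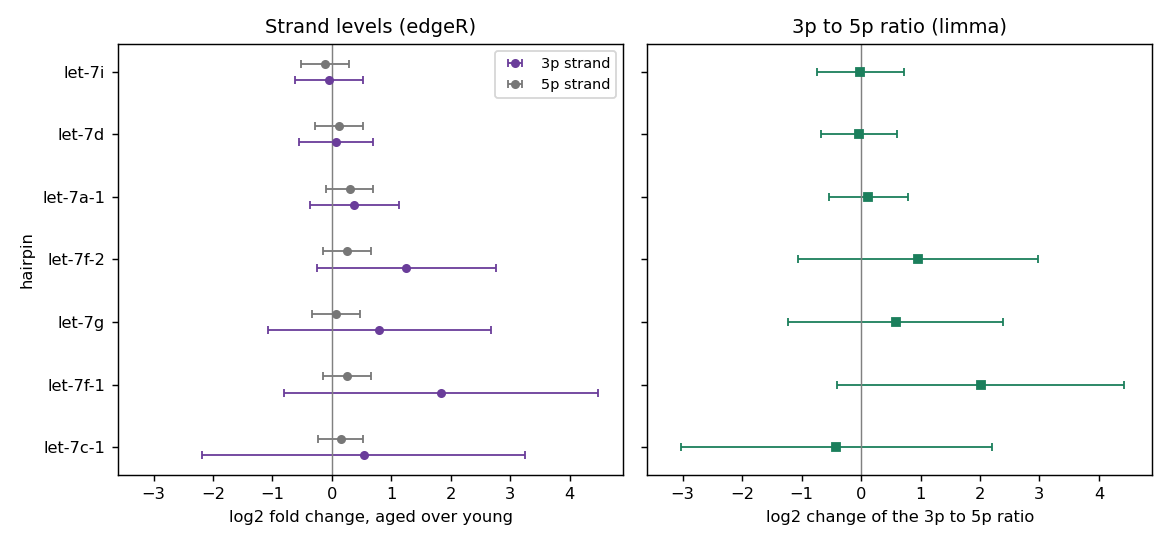
Left, log2 fold change of aged over young mice with approximate 95% intervals (edgeR) for the 3p strand (violet) and the 5p strand (grey) of each let-7 hairpin; right, log2 change of the 3p to 5p ratio with 95% intervals (limma). All intervals include 0, with those of the 3p strands of let-7i and let-7d narrower than those of let-7f-1, which reaches 4.48 on the left, and let-7c-1, which is the widest in both panels; let-7c-2 has the same 3p counts as let-7a-1 and is left out.

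The 3p to 5p ratio, which needs no library total, was compared in limma over all 107 hairpins. None had an adjusted p-value under 0.05 (0.0%), and 7.48% an unadjusted one, among them 0 of the 8 let-7 hairpins. edgeR on the 3p counts with the 5p counts as offset also called 0. The difference of the log2 ratio (aged minus young) was -0.01 (standard error 0.34, limma adjusted p = 0.98) for let-7i, with an interval for the fold change of 0.597 to 1.65. For let-7d it was -0.04 (standard error 0.30, limma adjusted p = 0.97), with 0.626- to 1.52-fold. The largest value was 2.01 (standard error 1.14, limma adjusted p = 0.62) for let-7f-1. As 2 young libraries had 0 counts, it depended on the counts added before the ratio, being 3.13 with 0.1 and 1.56 with 1 in place of 0.5, and it was 1.25 without young mouse 1. Here again the aged mice (0.505 to 1.10 per 1000) lay above the young mice (0 to 0.422 per 1000), as in 2.8% of all hairpins.

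The make-up of the 3p pool was also compared. let-7i-3p and let-7d-3p together gave 76.5% to 89.0% of the let-7 3p counts in young and 72.3% to 76.3% in aged mice, so that the ages did not overlap, though by a margin of less than 1 percentage point. With the shared strand added, the ages overlapped, at 91.5% to 96.7% in young and 85.8% to 91.7% in aged mice. The sum of let-7i-3p and let-7d-3p was formed after the values had been seen and was not tested.

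The miRNAs whose levels moved most like the summed let-7 3p strands over the 8 libraries were miR-17-3p (Pearson r = 0.89, Spearman rho = 0.98), miR-21a-5p (r = 0.81, rho = 0.81), miR-350-3p (r = 0.81, rho = 0.83), miR-30e-5p (r = 0.80, rho = 0.86) and miR-26b-5p (r = 0.80, rho = 0.69). They are the 5 highest of 153 miRNAs outside the family with a mean of at least 20 counts, compared by log2(CPM + 1), and are given as a description of these libraries. The summed let-7 3p level itself only ranged from 1124 CPM in young mouse 1 to 1741 CPM in young mouse 3.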

How the data were processed

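Small RNA of sorted microglia had been sequenced in 8 libraries, 4 per age. The authors mapped the reads to the mouse genome (GRCm38) and to miRBase with Bowtie in miRMaster and deposited estimated counts per mature miRNA, of which 68 of 3173 nonzero values were not whole. How reads that match several miRNAs are divided is not given in the sources used here, and rows of identical mature sequence carried the same counts. The library totals behind the normalization of the study were not used here, so CPM was computed from the deposited counts.

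The test had been planned for whole counts, and values were therefore rounded for edgeR 4.0.16 (quasi-likelihood test, trimmed mean of M-values) and DESeq2 1.42.0 in R 4.3.3. The tests covered the 419 miRNAs that reached 5 counts in 10% or more of the mice of either age, with Benjamini-Hochberg adjustment over all of them and a threshold of 0.05. Approximate 95% intervals used the standard errors of the fit. The log2 ratio of 3p to 5p counts, each with 0.5 counts added, was fitted in limma 3.58.1 over 107 hairpins. The p-values rest on the spread between these libraries. In edgeR this spread was pooled almost wholly over the 419 miRNAs (prior degrees of freedom 1793), so its p-values and intervals reflect little of a strand's own spread. The members and lists were chosen with earlier results of these data known. Named were all members, the 5p strands of their hairpins, other let-7 family 3p strands, the miRNAs of the same clusters and the 5 miRNAs whose log2(CPM + 1) had the highest Pearson correlation with the summed 3p strands. Settings varied were the filter, scaling, test, offset, replicate block and each library in turn. Mice with the same replicate number are different animals, and the correlation of their deviations from the age means was -0.18 to 0.17, so the fits had no block.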

Additional observations from a re-analysis of the deposited data

Results flagged for a closer look

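In 4 of 50 groups of 4 libraries a single library stood apart by Dixon's test, against 2.5 that chance gives at about 1 in 20. let-7f-1-3p in aged mice was marked by aged mouse 1, with 46.6 CPM against 21.3 to 23.7 CPM in the other 3 (gap over range 0.904), and so was its ratio to let-7f-5p, with 1.10 per 1000 (0.894). let-7b-3p in aged mice was marked both as a level and as a ratio because aged mouse 3 had 1 count and the other 3 had 0 (gap over range 1). These are 7 counts or fewer, and their cause was not tested.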

How the results depend on the processing

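The number of let-7 3p strands called was 0 under all 18 alternatives, and that of the 3p to 5p ratios 0 under all 16. The count over all miRNAs, 16, was 1 with at least 10 counts in every library (156 tested), 10 in DESeq2, 0 in limma on log2(CPM + 1), with 38 at an unadjusted p-value under 0.05, among them 1 member (let-7f-1-3p, 2.78, standard error 1.09), 2 in the bias-adjusted fit and 6 to 21 when single libraries were left out. With the replicate block, although the numbers do not pair the mice, it was 11, and 0 of the members were called. At an unadjusted p-value under 0.05, 1 member (let-7f-2-3p) also passed in edgeR without young mouse 3, aged mouse 1 or aged mouse 4, and 1 ratio (let-7f-1) in limma without the variance trend. The direction of let-7c-1-3p turned to -0.99 in limma and to -0.34 with the replicate block, and ran from -1.34 to 1.07 without single libraries, and its ratio was 0.26 in edgeR with the 5p offset and ran from -1.25 to 0.21. Without single libraries, values ran from -0.16 to 0.058 for let-7i-3p, from -0.31 to 0.14 for the let-7i ratio and from -0.17 to 0.11 for the let-7d ratio. The cause was not tested. With the shared strand counted for both hairpins, an alternative added after seeing the data, the 3p to 5p ratio of the family was 4.76 per 1000 in young and 4.65 in aged mice, and without single libraries the ratio was 3.93 to 4.76 in young and 3.68 to 4.14 in aged mice. At this depth let-7b-3p, with at most 3 counts in a library, and let-7a-2-3p, at 0, could not be compared.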
